A study of Mus musculus with 2 samples.

Results

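A set of 9 chemokine receptor genes was followed through the leukocytes of mouse dorsal skin: Ccr1, Ccr6, Ccr7, Ccr8, Ccr10, Cxcr2, Cxcr3, Cxcr4 and Cxcr6. Each was found by its symbol, and all 9 are among the 33904 genes of both count tables. Skin was profiled by droplet single-cell RNA-seq (10x Genomics 3′ chemistry v3.1) in 1 Ctrl library and 1 AD library. Female C57BL/6J mice aged 7 weeks had the back depilated in both groups. Ctrl skin then received ethanol each day for 10 days, and AD skin received MC903 in ethanol at 4.5 nmol per application. MC903 (calcipotriol) is a vitamin D analogue that induces a dermatitis resembling atopic dermatitis, so the model is a chemical one. The number of mice behind a library is not given in the sources used here, and with 1 library per condition no test between conditions was made.

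Chemokine receptors are G protein-coupled receptors that steer leukocytes along gradients of small secreted proteins, the chemokines. A receptor that pairs with CCL ligands carries the prefix Ccr and one that pairs with CXCL ligands the prefix Cxcr. Some receptors guide cells into inflamed or barrier tissue, others hold cells in the tissue or lead them through lymph vessels to lymph nodes, and the set that a T cell carries is widely used to describe its type.

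The Ctrl library held 125184653 UMIs (distinct transcript molecules) in 12598 barcodes and the AD library 76106062 UMIs in 8778 barcodes. After the cell filter of the study, 11399 and 8179 cells remained, with median depths of 7813 and 6330 UMIs. Leukocytes were placed in 8 gates by marker genes that include no chemokine receptor. In the order Ctrl and AD, the gates held 316 and 262 alpha-beta T cells, 86 and 49 Foxp3 T cells, 187 and 76 gamma-delta T cells, 468 and 206 macrophages, 204 and 46 dendritic cells, 6 and 59 neutrophils, 9 and 48 basophils, and 132 and 46 mast cells. The gates are 12.4% and 9.68% of the kept cells. The labelled types were carried by their own genes, among which Ctla4 stood at 1032 and 1313 CPM in Foxp3 T cells, Il17a at 815 and 1137 CPM in gamma-delta T cells and S100a8 at 9299 and 24128 CPM in neutrophils. The AD neutrophil gate also held Cd74, a gene of antigen-presenting cells, at 2688 CPM against 52.5 CPM in the 6 Ctrl cells, and 14 of its 59 cells clustered with macrophages and dendritic cells. The 6 Ctrl cells held 6 of 8 fibroblast markers at a summed 4308 CPM, against 94.8 CPM in AD. RNA of skin structural cells was higher in the Ctrl gates, where Col1a1, the main collagen gene of fibroblasts, stood at 729 CPM in alpha-beta T cells against 35.1 CPM in AD. In non-leukocytes Col1a1 itself was at 7202 and 656 CPM. The libraries shared 35 barcodes, 1 of them in a gate.

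A level is the count per 1e6 UMIs of the gate (CPM), after pooling its cells, with its exact Poisson 95% interval in parentheses. A ratio of AD over Ctrl is on the log2 scale with a conditional exact binomial 95% interval. All intervals cover counting error only and say nothing about variation between mice. In sparse data a deeper cell shows a gene more often, so the share of cells with a UMI is also given as its expected value after thinning each cell to 1000 UMIs (the thinned share). Over non-leukocytes, at median depths of 9185 and 7500 UMIs, 0.676% of cells or fewer had a UMI of any 1 receptor other than Cxcr4, which was seen in 4.48% and 5.31%. A gene was counted as at least 2-fold higher or lower where both libraries had 20 or more cells in the gate and the gene 20 or more UMIs in all; genes that met both are called assessed. A gate can hold cells of several states.

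**Figure D1:**
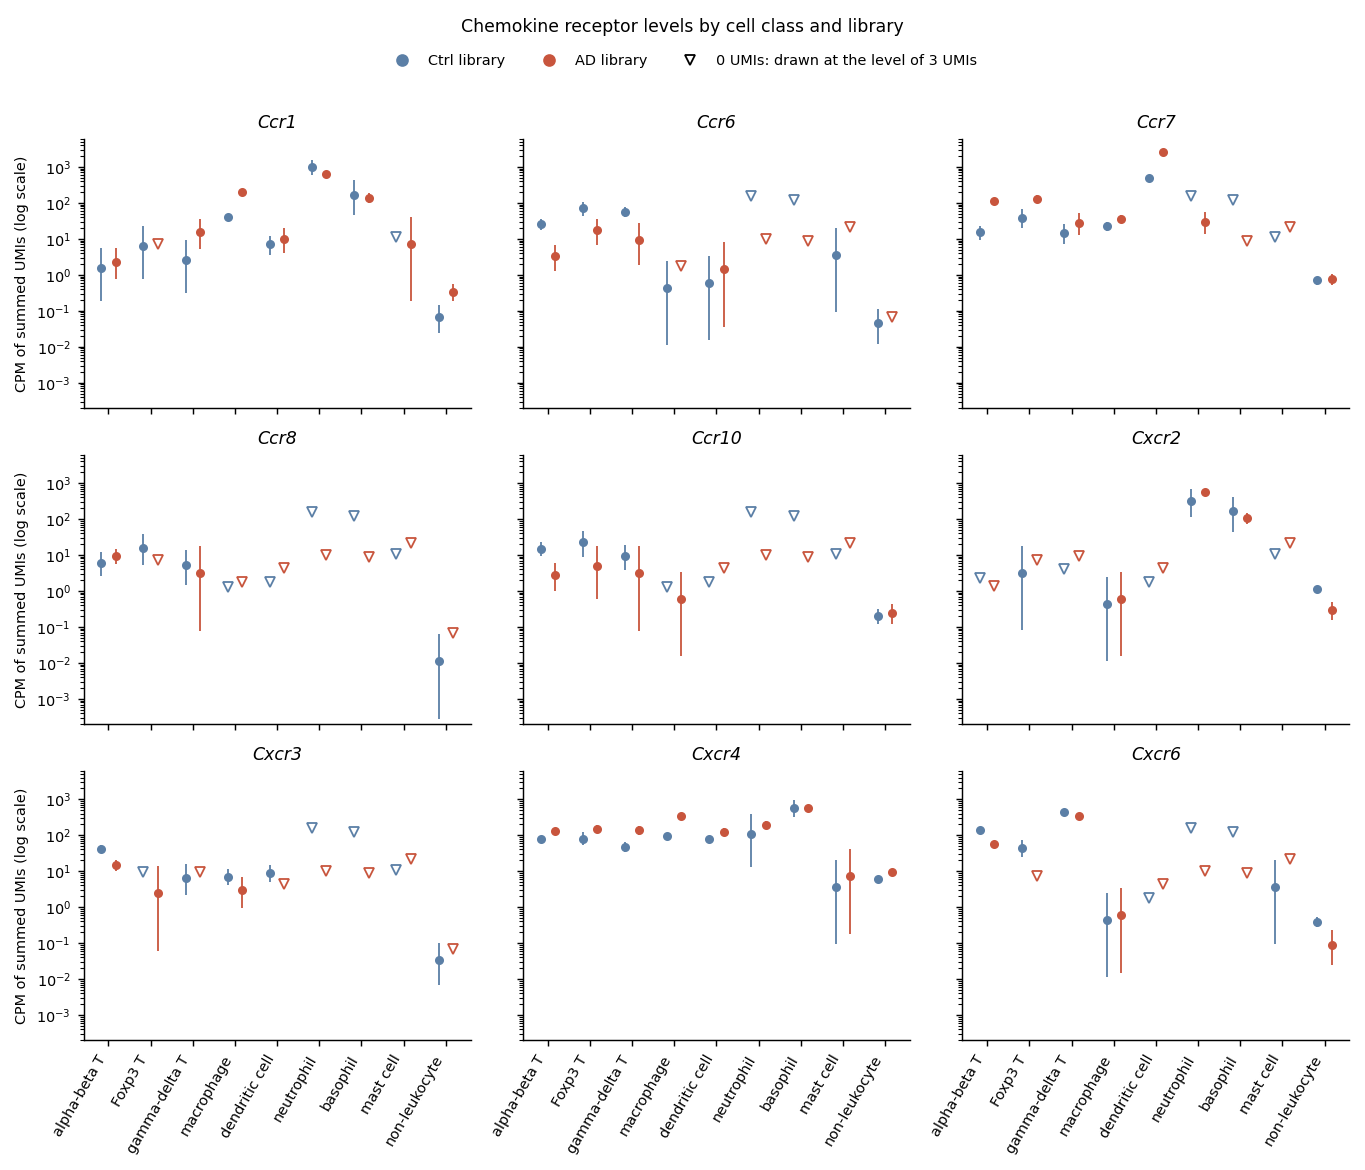
Level of each receptor (CPM of summed UMIs, log scale) in the 8 leukocyte gates and in non-leukocytes, in the Ctrl and AD libraries. Points are levels, bars exact Poisson 95% intervals, and open triangles mark a class with 0 UMIs at the level that 3 UMIs would give. Ccr7 peaks in dendritic cells, Ccr1 and Cxcr2 in neutrophils, and Cxcr6 in gamma-delta T cells, while the non-leukocyte level lies under 10 CPM for every receptor.

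The 9 receptors divided by cell type. In the AD library, the order of Ccr1 levels ran from neutrophils (625 CPM) through macrophages (205 CPM) and basophils (137 CPM), and the other gates stood at 15.6 CPM or lower. The counting intervals of neutrophils and macrophages in that order did not overlap. Cxcr2 was highest in neutrophils and next in basophils. Ccr7 was highest in dendritic cells and followed by Foxp3 and alpha-beta T cells, whose intervals overlapped. Ccr6, Ccr8, Ccr10, Cxcr3 and Cxcr6 had their highest levels in T cell gates, and Cxcr4 was detected in every gate. In the AD library 100.0% of neutrophils, 97.9% of basophils and 95.7% of dendritic cells had a UMI of at least 1 of the 9, against 4.35% of mast cells and 6.68% of non-leukocytes. The median depth of those AD mast cells was 2504 UMIs and that of the non-leukocytes 7500 UMIs. Mast cells gave 3 positive cells of 132 in Ctrl and 2 of 46 in AD. None of the 9 reached the 20 UMIs needed for a fold in mast cells, where 7.73% of 3440 genes were at least 2-fold higher in AD and 13.5% at least 2-fold lower.

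Leukocytes held 94.5% to 97.5% of the UMIs of Ccr1, Ccr6, Ccr7, Ccr8, Cxcr3 and Cxcr6 in Ctrl, and 94.6% to 100.0% in AD. Leukocytes here are the gates, other T cells, B cells and any ungated cell with a Ptprc UMI, which non-leukocytes lack by definition. The other 3 were less restricted. Only 57.7% of Cxcr4 UMIs and 69.1% of Ccr10 UMIs of the Ctrl library lay in leukocytes. Cxcr2 had 14.2% there in Ctrl and 94.1% in AD. In Ctrl, 91 Cxcr2 UMIs came from 47 of 2060 keratinocytes, a level of 2.92 CPM (2.35 to 3.59), with up to 10 in 1 cell. In AD keratinocytes the level was 0.887 CPM (0.288 to 2.07), from 5 UMIs in 391 cells.

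The promoters of Ccr1 and Cxcr4 are shown since both receptors were higher in AD macrophages and the stretches differ in composition. Both are RefSeq sequences upstream of the transcription start in GRCm38.p6, 5′ to 3′ on the minus strand, at chr9:123968693-123968942 and chr1:128592300-128592549. Capitals mark a RUNX-type motif (TGTGGT on either strand) in Ccr1 and a TATA box (TATAAA on either strand, here 2 overlapping matches) in Cxcr4.
Ccr1: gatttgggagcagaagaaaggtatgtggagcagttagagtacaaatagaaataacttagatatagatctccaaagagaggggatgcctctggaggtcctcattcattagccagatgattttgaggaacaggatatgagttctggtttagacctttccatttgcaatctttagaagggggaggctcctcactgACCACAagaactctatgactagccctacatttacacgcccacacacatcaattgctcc
Cxcr4: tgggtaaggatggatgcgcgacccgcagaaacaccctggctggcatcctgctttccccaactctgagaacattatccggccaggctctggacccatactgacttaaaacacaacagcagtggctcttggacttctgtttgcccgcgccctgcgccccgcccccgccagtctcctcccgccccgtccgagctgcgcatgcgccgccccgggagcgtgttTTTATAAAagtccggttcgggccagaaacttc
The stretch of Ccr1 held 43.6% G and C with 1 CG dinucleotide, and that of Cxcr4 61.2% with 19. The TATA box of Cxcr4 began 32 bases upstream of the start, and 12.4% of 32851 promoter stretches of this length hold one. The RUNX-type match of Ccr1 began 58 bases upstream, and 14.0% of promoter stretches hold one. A match describes these letters and is not evidence of binding.

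Ccr1 (chr9:123962124-123968692, minus strand, GRCm38), a receptor for the inflammatory chemokines Ccl3 and Ccl5 on myeloid cells, was 5.12-fold higher in AD macrophages. It stood at 40.1 CPM (32.3 to 49.3) in the Ctrl library, with a UMI in 60 of 468 cells, and at 205 CPM (184 to 228) in the AD library, with a UMI in 100 of 206 cells. The log2 ratio was 2.35 (2.02 to 2.70). After thinning, the expected shares were 4.06% and 18.2%. The background in non-leukocytes was 0.0677 and 0.333 CPM. Median depths of the macrophage gate were 4255 and 6238 UMIs, and its summed fibroblast markers stood at 649.7 and 143 CPM and keratinocyte markers at 947 and 18.6 CPM. Summed neutrophil markers were higher in AD, at 149 CPM from 5 of 8 genes and 470.1 CPM from 6 of 8. Retnlg of that list was at 0 in Ctrl and was detected in AD. Ly6g and Stfa2l1 were at 0 in both libraries, and the neutrophil receptor Cxcr2 had 1 UMI in each. The part of these genes in the ratios was not tested. In neutrophils Ccr1 was found in all 6 Ctrl cells and in 53 of 59 AD cells, at 998 CPM (601 to 1559) and 625 CPM (539 to 719.8). The ratio there was -0.68 (-1.36 to 0.09), so no difference was detectable with 6 Ctrl cells. It was -1.58 (-2.34 to -0.71) without cells that hold markers of another type, which left 5 and 57 cells. Basophils gave 164 CPM (44.6 to 419) and 137 CPM (101 to 183).

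Cxcr4 (chr1:128588199-128592293, minus strand), the receptor for Cxcl12 that retains leukocytes in bone marrow and tissue, was also higher in AD macrophages. Its level was 97.9 CPM (85.5 to 112) in Ctrl and 331 CPM (304 to 360.2) in AD, a log2 ratio of 1.76 (1.53 to 1.99). A UMI was seen in 138 of 468 and 118 of 206 cells, and the thinned shares were 9.51% and 23.4%. In this gate 2 of the 4 receptors assessed, Ccr1 and Cxcr4, were at least 2-fold higher, beside 6.22% of 10013 genes. Cxcr3 was at least 2-fold lower, beside 13.9% of genes, on 16 and 5 UMIs, with an interval that reaches 0.28. Ccr7 was neither, at 22.5 and 36.0 CPM. Those Ccr7 UMIs came from 10 Ctrl and 7 AD cells, up to 33 in 1 cell. Without cells that hold markers of another type the ratio turned from 0.68 to -0.60 (-1.39 to 0.16). The median ratio of the 4 receptors was 1.22 and that of all genes assessed -0.10.

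The macrophage gate was spread over clusters differently in the 2 libraries. When all cells were clustered without chemokine receptors among the variable genes, 84.4% of the Ctrl gate lay in a cluster led by Retnla, C1qa and C1qc, genes of resident macrophages and complement. The AD gate was split, with 51.0% in that cluster and 46.1% in another led by the antigen presentation genes H2-Ab1, Cd74 and H2-Aa, which also held most Ctrl dendritic cells. In the first cluster Ccr1 was at 48.8 CPM (38.9 to 60.4) in Ctrl and 85.2 CPM (63.5 to 112) in AD. In the second it was at 19.0 CPM (7.63 to 39.1) in 60 Ctrl cells and 288 CPM (255 to 323) in 95 AD cells. Cxcr4 was higher in AD in both clusters, at 101 CPM (86.6 to 117) against 247 CPM (209 to 291) in the first, and at 122 CPM (89.0 to 163) against 399 CPM (361 to 440.1) in the second. Taking the Retnla cluster as the macrophages gave a log2 ratio of 0.85 (0.32 to 1.36) for Ccr1 and 1.29 (0.97 to 1.61) for Cxcr4. Within the second cluster the cells of the 2 libraries differed in other genes. Cd209a, a dendritic cell gene, was at 512 and 13.8 CPM in Ctrl and AD, and C1qa at 249 and 1332 CPM. The monocyte gene Ly6c2 was at 157 and 12.8 CPM and Plac8 at 230.4 and 8.89 CPM. Cd207, of the dendritic cell list, was at 173 and 221 CPM. H2-Aa, of the genes that lead this cluster, was at 9447 and 3679 CPM, with a UMI in 57 of 60 and 66 of 95 cells. Il1b, also a leading gene of the cluster, was at 6807 CPM (6543 to 7078) and 6634 CPM (6476 to 6794), with overlapping intervals.

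**Figure D2:**
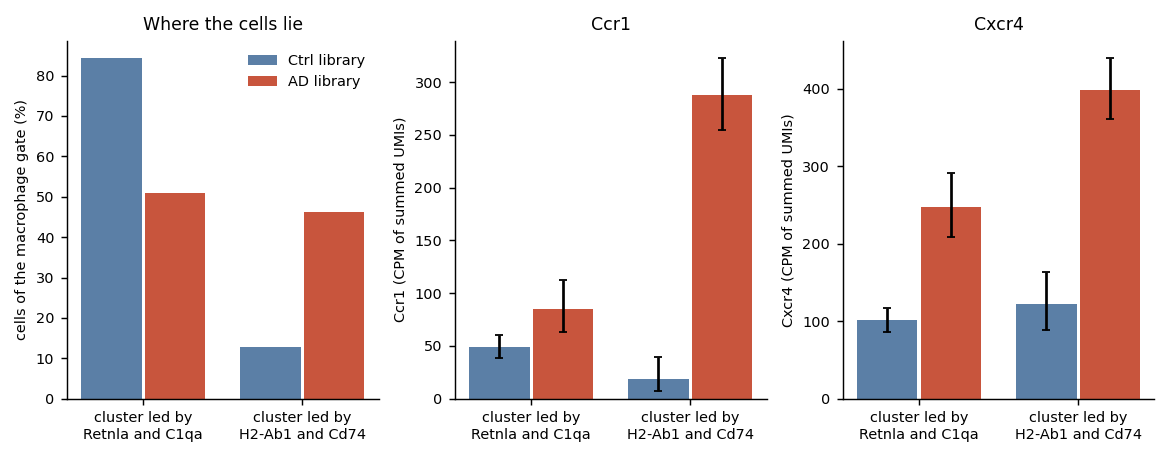
Cells of the macrophage gate by cluster and library: the share of the gate in each cluster (percent), and the levels of Ccr1 and Cxcr4 (CPM of summed UMIs; bars are exact Poisson 95% intervals). Ccr1 reaches 288 CPM in the AD cells of the cluster led by H2-Ab1 and Cd74 and 85.2 CPM in those of the Retnla cluster, while Cxcr4 is higher in AD in both.

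Ccr7 was the most abundant of the 9 and was 5.27-fold higher in AD dendritic cells. This receptor for Ccl19 and Ccl21 (chr11:99144196-99155077, minus strand) leads mature dendritic cells and naive T cells to lymph nodes. Its level was 496 CPM (463 to 531) in Ctrl, from 839 UMIs in 43 of 204 cells, and 2615 CPM (2497 to 2738) in AD, from 1834 UMIs in 36 of 46 cells. The log2 ratio was 2.40 (2.28 to 2.52) and the thinned shares were 14.7% and 70.4%. Positive cells carried a median of 11 UMIs in Ctrl and 46.5 in AD, up to 116 in 1 AD cell, at median depths of the gate of 8270 and 15322 UMIs. Summed fibroblast markers in the gate were at 151 and 75.6 CPM. The non-leukocyte level was 0.699 CPM in Ctrl and 0.755 CPM in AD. Of the 2 receptors assessed in this gate, Ccr7 was at least 2-fold higher and Cxcr4 was not, beside 10.9% of 8049 genes higher and 16.8% lower.

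The make-up of the dendritic cell gate moved with this result. Subsets were formed after the values had been seen. Mature cells, with UMIs of at least 2 of the gate markers Fscn1, Il4i1, Cacnb3 and Ccl22, were 37 of 204 cells in Ctrl and 34 of 46 in AD. Cells with fewer of these genes and with Cd207 (langerin, of Langerhans cells and some dermal dendritic cells) numbered 70 in Ctrl and 1 in AD, and the rest 97 and 11. The macrophage gate also held cells with a Cd207 UMI, 4 in Ctrl and 15 in AD in the cluster led by H2-Ab1 and Cd74. The Cd207 subset is thus not a count of all Cd207 cells of a library. Among mature cells Ccr7 was at 2627 CPM (2442 to 2821) in Ctrl and 3361 CPM (3206 to 3522) in AD, a log2 ratio of 0.36 (0.23 to 0.48). The thinned shares of mature cells with Ccr7 were 67.4% and 89.9%. In Ctrl the Cd207 subset had 14.0 CPM and the rest 103 CPM. In the clustering, 28 Ctrl and 31 AD cells of the gate fell in a cluster led by Ccl22, where Ccr7 stood at 3326 and 3512 CPM. Both dendritic cell clusters together, which also hold 95 AD cells of the macrophage gate, gave a ratio of 1.52 (1.41 to 1.64).

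**Figure D3:**
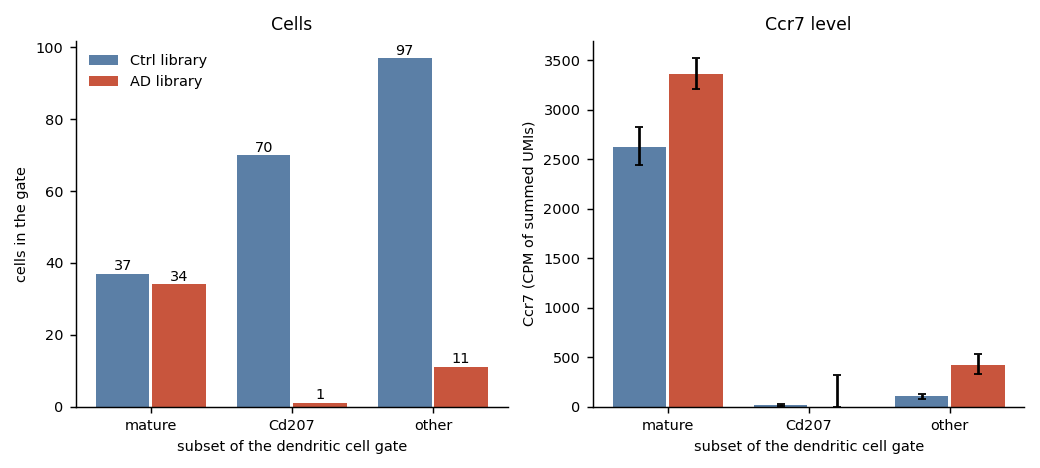
Cells (left) and Ccr7 level (right, CPM of summed UMIs, bars are exact Poisson 95% intervals) in 3 subsets of the dendritic cell gate: mature cells, Cd207 cells and the others, in the Ctrl and AD libraries. The 37 and 34 mature cells carry most Ccr7 in both libraries, at 2627 and 3361 CPM, and the Cd207 subset is 70 cells in Ctrl and 1 cell in AD. Cells with Cd207 in the macrophage gate are not counted.

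Cxcr4 in dendritic cells was at 78.7 CPM (65.9 to 93.2) in Ctrl and 125 CPM (101 to 155) in AD, a ratio of 0.67 (0.27 to 1.07). The share of each subset differed between the libraries. The ratio was 0.75 (-0.22 to 1.82) in mature cells, at 41.9 and 70.5 CPM, and 1.56 (1.00 to 2.12) in the cells that were neither mature nor Cd207-positive, at 94.7 and 279.6 CPM in 97 and 11 cells. The Cd207 subset had 1 AD cell. Both dendritic cell clusters together gave 1.70 (1.49 to 1.91), above 2-fold. Cxcr3, the receptor for the interferon-induced Cxcl9 and Cxcl10, had 15 UMIs in 14 of 204 Ctrl dendritic cells, at 8.87 CPM (4.97 to 14.6), and 0 UMIs in the 46 AD cells, where the upper limit is 5.26 CPM. These intervals overlap. Of the 15 UMIs, 13 lay in the Cd207 subset, at 20.2 CPM, the subset that had 1 cell in AD.

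In alpha-beta T cells, 4 of the 7 receptors assessed were at least 2-fold lower in AD, beside 13.0% of 9620 genes, and 1 was at least 2-fold higher, beside 3.76% of genes. Ccr6, Ccr10, Cxcr3 and Cxcr6 were lower, Ccr7 was higher, and Ccr8 and Cxcr4 were within 2-fold. The median ratio of the 7 was -1.28 and that of all genes assessed -0.26. Cells with Cd8a or Cd8b1 and without Cd4, here called Cd8 cells, numbered 111 in Ctrl and 60 in AD. Those with Cd4 and neither Cd8 gene numbered 79 and 121, and 126 and 81 cells had none of these. In the clustering, 26.9% of the Ctrl gate and 8.40% of the AD gate lay in the cluster with most Foxp3 T cells. That cluster held 89.5% of Ctrl and 83.7% of AD Foxp3 T cells. The cluster with most gamma-delta T cells held 7.91% and 15.6% of alpha-beta T cells. The part of this make-up in the ratios was not tested. Median depths were 3052 UMIs in Ctrl and 6914 UMIs in AD. Summed markers of fibroblasts (all 8 detected in both libraries) stood at 590.0 and 129 CPM, and those of keratinocytes (all 8 detected) at 851 and 75.8 CPM. Their part in the ratios was not tested. The receptors lower in AD stood at 0.395 CPM or less in Ctrl non-leukocytes, which does not measure structural-cell RNA in the gate total.

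**Figure D4:**
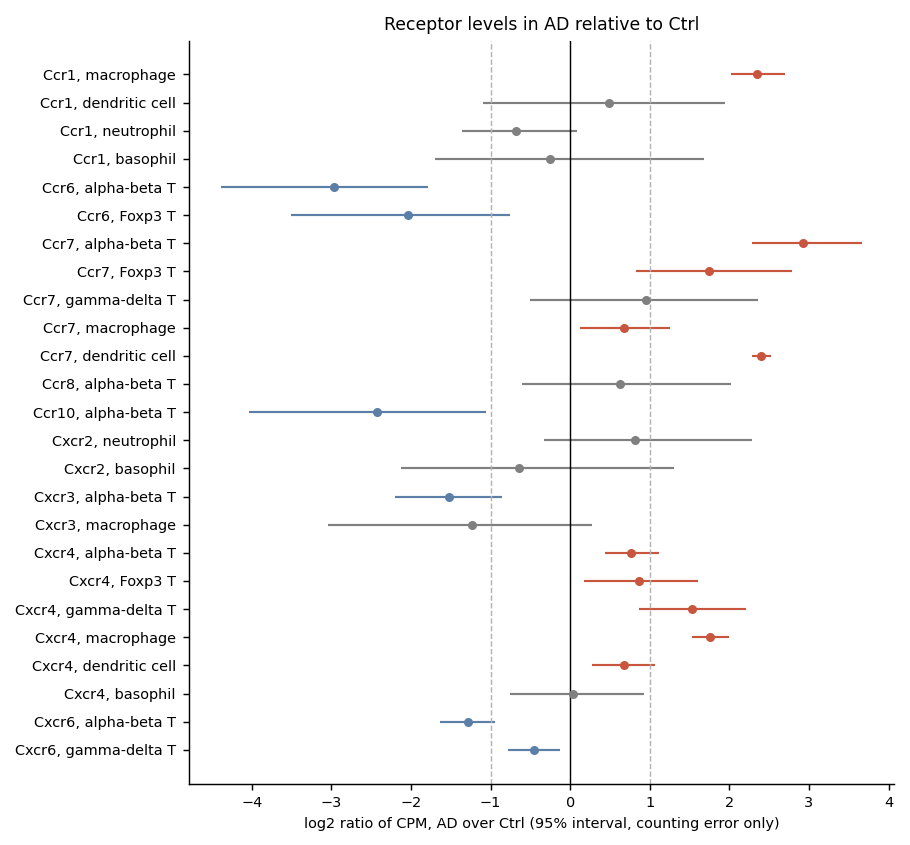
Ratio of AD over Ctrl (log2, with 95% intervals for counting error only) for each receptor and gate with at least 4 UMIs in both libraries. Red points have an interval above 0, blue points one below 0 and grey points one that includes 0, and dashed lines mark 2-fold. Ccr7 and Cxcr4 lie to the right of 0 in all 3 T cell gates and in dendritic cells, and Ccr6, Ccr10, Cxcr3 and Cxcr6 to the left in alpha-beta T cells.

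The promoters of Ccr6 and Cxcr6 are given since both receptors were lower in AD alpha-beta T cells. They are RefSeq sequences of GRCm38.p6 on the plus strand, at chr17:8235793-8236042 and chr9:123806227-123806474, from the start of Ccr6 nearest to its annotated gene start. Capitals mark matches to the STAT-type motif TTCNNNGAA in Ccr6 and to the RUNX-type motif TGTGGT (either strand) in Cxcr6.
Ccr6: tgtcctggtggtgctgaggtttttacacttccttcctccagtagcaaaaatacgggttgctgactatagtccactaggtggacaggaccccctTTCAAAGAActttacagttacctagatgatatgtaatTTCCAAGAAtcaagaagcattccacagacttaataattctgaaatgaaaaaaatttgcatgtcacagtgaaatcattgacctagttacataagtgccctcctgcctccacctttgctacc
Cxcr6: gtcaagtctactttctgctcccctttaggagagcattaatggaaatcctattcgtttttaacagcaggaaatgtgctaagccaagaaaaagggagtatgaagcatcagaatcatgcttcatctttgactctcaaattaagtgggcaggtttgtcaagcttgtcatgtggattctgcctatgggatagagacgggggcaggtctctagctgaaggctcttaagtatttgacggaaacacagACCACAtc
Ccr6 held 2 matches to TTCNNNGAA, which begin 157 and 120 bases upstream of the start, and 7.02% of promoter stretches of this length hold 1 or more. Cxcr6 held none of these, and its TGTGGT match began 10 bases upstream, where 14.0% of stretches of 248 bases hold one. Stretches of Ccr7 and Ccr10 were not in the table used here.

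Cxcr6 (chr9:123806475-123811760, plus strand), the receptor for Cxcl16 and a gene of T cells that reside in tissue, was the most abundant of these in Ctrl. It stood at 139 CPM (119.6 to 161) in Ctrl alpha-beta T cells and 57.1 CPM (47.4 to 68.1) in AD, a log2 ratio of -1.28 (-1.63 to -0.95). A UMI was seen in 106 of 316 and 64 of 262 cells, and thinned shares were 13.0% and 5.89%. The ratio was -2.31 (-3.05 to -1.59) in Cd4 cells, -0.89 (-1.43 to -0.37) in Cd8 cells and -0.21 (-0.82 to 0.39) in those with neither. Foxp3 T cells gave 14 UMIs in 10 of 86 Ctrl cells, at 45.0 CPM, and 0 UMIs in 49 AD cells, at least 6.11-fold lower against the level of 3 UMIs. A count of 0 in 49 cells allows a share of up to 6.12% of cells with a UMI, which limits detection and not the share of cells that express the gene.

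Cxcr3, which marks type 1 T cells, was at 41.5 CPM (31.3 to 54.1) in Ctrl and 14.5 CPM (9.85 to 20.6) in AD, with 48 of 316 and 20 of 262 positive cells. The log2 ratio was -1.52 (-2.20 to -0.86) and the thinned shares 4.54% and 1.52%. In Cd4 cells it was at 42.8 CPM (22.1 to 74.8) in Ctrl and 3.52 CPM (0.959 to 9.01) in AD, where all 4 UMIs came from 1 cell. In Cd8 cells it was at 53.0 CPM (35.8 to 75.7) and 38.7 CPM (23.3 to 60.4), with a ratio of -0.46 (-1.37 to 0.42). That interval includes 0, and the thinned shares were 5.82% and 4.15%.

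Ccr6 (chr17:8236043-8257141, plus strand), the receptor for Ccl20 on cells that make interleukin 17, was low in all 3 T cell gates of the AD library. In alpha-beta T cells it was at 25.7 CPM (17.8 to 35.9) in Ctrl, in 31 cells, and 3.27 CPM (1.32 to 6.75) in AD, in 6 cells. The log2 ratio was -2.97 (-4.39 to -1.78) and the thinned shares 3.39% and 0.544%. In Cd4 cells the level was 32.1 CPM in Ctrl and 1.76 CPM in AD, in cells with neither 48.1 and 5.88 CPM, and in Cd8 cells 3.54 and 4.07 CPM from 2 UMIs each. Foxp3 T cells gave 70.7 CPM (44.3 to 107) and 17.2 CPM (6.91 to 35.4), from 22 and 7 UMIs, a ratio of -2.04 (-3.51 to -0.76). Of the 3 receptors assessed in Foxp3 T cells, Ccr6 was at least 2-fold lower, beside 12.1% of 5202 genes, Ccr7 at least 2-fold higher, beside 9.17%, and Cxcr4 neither.

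Ccr10, the receptor for the epidermal chemokine Ccl27, was sparse, with 20 UMIs in 17 Ctrl alpha-beta T cells and 6 UMIs in 4 AD cells. Levels were 15.1 CPM (9.23 to 23.3) and 2.81 CPM (1.03 to 6.11), a ratio of -2.43 (-4.03 to -1.06). Ccr8, found on skin T cells and regulatory T cells, had 8 UMIs in Ctrl and 20 in AD, at 6.04 CPM (2.61 to 11.9) and 9.35 CPM (5.71 to 14.4). Its ratio of 0.63 (-0.61 to 2.02) does not show a direction at this depth. In Foxp3 T cells Ccr8 was seen in 5 of 86 Ctrl cells, at 16.1 CPM (5.22 to 37.5), and in 0 of 49 AD cells, where the upper limit is 9.05 CPM. The AD level was at least 2.18-fold lower against the level of 3 UMIs, on 5 Ctrl UMIs. The separate intervals overlap, which is not a comparison of the libraries.

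Ccr7 differed in the other direction from Ccr6, Ccr10, Cxcr3 and Cxcr6. Alpha-beta T cells gave 15.1 CPM (9.23 to 23.3) in Ctrl, in 18 of 316 cells, and 116 CPM (102 to 131) in AD, in 89 of 262 cells. The log2 ratio was 2.93 (2.28 to 3.67) and the thinned shares 1.77% and 9.05%. It was higher in Cd4 cells, with a ratio of 2.42 (1.26 to 3.89), and in Cd8 cells, with 3.79 (2.68 to 5.15). In cells of 2000 to 8000 UMIs it was 2.51 (1.73 to 3.37). Foxp3 T cells gave 38.6 CPM (19.9 to 67.4) and 130.1 CPM (97.4 to 170.1), a ratio of 1.75 (0.83 to 2.79). State genes of T cells, chosen after values had been seen, differed unevenly in the alpha-beta T cell gate. Among genes of circulating T cells, Lef1 was at 21.9 CPM (14.7 to 31.5) and 88.9 CPM (76.7 to 102) and S1pr1 at 21.9 and 62.2 CPM, while Klf2 was at 77.1 and 104 CPM and Tcf7 at 131 and 158 CPM. Among genes of tissue-resident T cells, Itgae was at 427 CPM (392 to 463) in Ctrl and 123 CPM (109 to 139) in AD, while Cd69 was at 733 and 673 CPM. Rgs1, of the same kind, had overlapping intervals of 891 to 997 CPM in Ctrl and 958 to 1043 CPM in AD. Their part in the receptor values was not tested. Among AD alpha-beta T cells, Cxcr6 was at 36.2 CPM (24.4 to 51.6) in the 89 cells with Ccr7 and 70.3 CPM (56.7 to 86.2) in the 173 without. In Ctrl the level was 141 CPM (73.0 to 247) in the 18 cells with Ccr7 and 139 CPM (119 to 161) in the 298 without. Cells with UMIs of both numbered 4 in Ctrl and 21 in AD, where the product of the shares gives 6.04 and 21.7 cells.

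Gamma-delta T cells carried the highest Cxcr6 level of any gate, at 452 CPM (406 to 503) in Ctrl, in 117 of 187 cells, and 331 CPM (271 to 400.4) in AD, in 41 of 76 cells. The ratio was -0.45 (-0.78 to -0.13). Skin holds epidermal gamma-delta T cells and dermal ones that make interleukin 17. Cells with a Trgv5 or Trdv4 UMI had 375 CPM (324 to 431) and 398 CPM (321 to 487). A UMI of either gene was enough for this set, which was formed after the values were seen. It was not shown to hold epidermal cells only. Ccr6 was at 56.9 CPM (41.2 to 76.6) in Ctrl, from 43 UMIs in 32 cells, and at 9.37 CPM (1.93 to 27.4) in AD, from 3 UMIs in 3 cells. Cxcr4 was at 47.6 CPM (33.3 to 65.9) in Ctrl and 137 CPM (99.9 to 185) in AD, a ratio of 1.53 (0.86 to 2.21). In the cells with Trgv5 or Trdv4 it was at 38.8 and 139.7 CPM. Of the 4 receptors assessed in this gate, Cxcr4 was at least 2-fold higher, beside 5.97% of 6532 genes, Ccr6 at least 2-fold lower, beside 12.4%, and Ccr7 and Cxcr6 neither.

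Cxcr4 was the receptor that most gates shared. It was higher in AD in alpha-beta T cells, at 76.3 CPM (62.1 to 92.7) against 130.0 CPM (115 to 146), and in Foxp3 T cells, at 80.3 CPM (52.0 to 119) against 147 CPM (112 to 189.5). The ratios were 0.77 (0.44 to 1.11) and 0.87 (0.18 to 1.61), both under 2-fold. In Cd4 cells it was 125 and 121 CPM, a ratio of -0.04 (-0.58 to 0.54), and in cells with neither Cd4 nor a Cd8 gene 77.4 and 198 CPM. Basophils had the highest level, at 573 CPM (313 to 961) in 9 Ctrl cells and 584 CPM (506 to 671) in 48 AD cells, which did not differ beyond counting error. Neutrophils gave 105 and 193 CPM from 2 and 59 UMIs. The non-leukocyte background was also higher in AD, at 6.00 CPM (5.50 to 6.53) against 9.35 CPM (8.48 to 10.3), with fibroblasts at 7.92 and 10.6 CPM and keratinocytes at 2.89 and 6.56 CPM. Every gate with at least 20 cells except mast cells stood at 47.6 CPM or more.

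**Figure D5:**
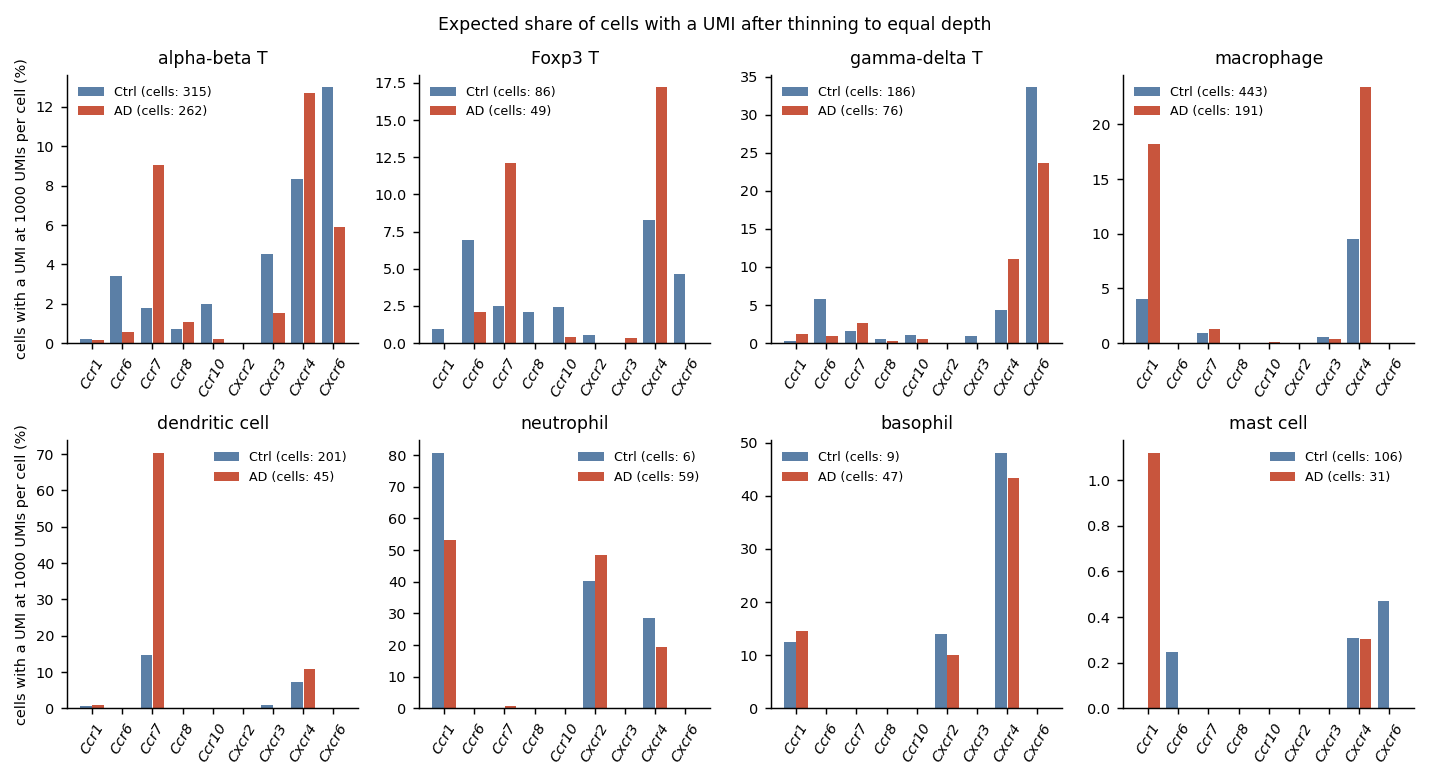
Expected share of cells with a UMI of each receptor (percent) after thinning every cell to 1000 UMIs, by gate and library; the number of cells deep enough is in each legend, and the vertical scales differ. In macrophages Ccr1 goes from 4.06% to 18.2% and Cxcr4 from 9.51% to 23.4%, and in dendritic cells Ccr7 goes from 14.7% to 70.4%.

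Cxcr2, the receptor for Cxcl1, Cxcl2 and Cxcl5 that draws neutrophils into tissue, was seen in 4 of 6 Ctrl and 42 of 59 AD neutrophils. Levels were 315 CPM (116 to 686) and 556 CPM (476 to 646), and the ratio of 0.82 (-0.33 to 2.28) does not show a direction with 6 UMIs in Ctrl. Requiring 4 markers gave 1.56 (0.41 to 3.03), and the neutrophil cluster, with 8 and 49 cells, gave 2.43 (1.35 to 3.76). Basophils gave 164 CPM (44.6 to 419) in 9 cells and 105 CPM (73.6 to 146) in 48. The gate itself held 6 of 11399 kept cells in Ctrl and 59 of 8179 in AD. Outside neutrophils and basophils, the other 6 gates gave 3 Cxcr2 UMIs over both libraries.

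The ligands of these receptors were measured in the same libraries. Ccl20, the ligand of Ccr6, stood at 23.5 CPM in Ctrl keratinocytes and 1.95 CPM in AD keratinocytes. Ccl19 of fibroblasts was at 345 and 98.8 CPM and Ccl21a of endothelial cells at 11660 and 5440 CPM, both lower in AD. Cxcl16, the ligand of Cxcr6, was higher in AD in macrophages, at 156 and 374 CPM, and in dendritic cells, at 222 and 588 CPM. Cxcl12, the ligand of Cxcr4, was higher in AD in fibroblasts, at 376 and 644 CPM, and lower in endothelial cells, at 296 and 45.0 CPM, and mural cells, at 127 and 54.7 CPM. Cxcl1 of fibroblasts was at 348 and 1657 CPM and Cxcl2 of macrophages at 4849 and 10911 CPM. Ccl27a, the ligand of Ccr10, was at 111 and 80.0 CPM in keratinocytes. Cxcl10, a ligand of Cxcr3, was at 689 and 549.9 CPM in macrophages, 91.7 and 2.85 CPM in dendritic cells, 161 and 198 CPM in fibroblasts, 16.4 and 68.0 CPM in endothelial cells and 20.1 and 137 CPM in mural cells.

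Of 14 other chemokine and atypical receptors, 7 could be assessed in alpha-beta T cells, where Ccr4, a receptor of type 2 T cells, was at least 2-fold higher in AD, at 39.3 and 79.5 CPM, and Ccr2 was at least 2-fold lower, at 113 and 40.2 CPM. Il4 stood at 3.02 and 88.9 CPM in the same gate. In macrophages 6 could be assessed. Ccrl2, an atypical receptor that binds chemerin, was higher, at 199 and 803 CPM, and Ccr2, the receptor of recruited monocytes, was lower, at 201 and 75.0 CPM. In dendritic cells 5 of 7 were at least 2-fold lower and 0 higher, beside 16.8% and 10.9% of all genes assessed. Ccr2 there was at 195 and 5.70 CPM and Xcr1, of cross-presenting dendritic cells, at 132 and 4.28 CPM. The log2 ratio of Ccr2 was -5.10 in the whole dendritic cell gate. It was -3.41 (-5.30 to -2.03) in the cells that were neither mature nor Cd207-positive. The make-up of this gate differed between the libraries, and its part in these values was not tested. In Foxp3 T cells 3 of 5 were lower, beside 12.1% of genes. In gamma-delta T cells 1 of 6 was higher and 1 lower, beside 5.97% and 12.4% of genes, which is near that background.

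The genes whose levels were most like each receptor across 14 classes of gate and library were listed as a description. The classes share libraries and depth, and the correlation is Pearson's r of log2 CPM with 10 added, over 11117 genes. Cxcr2 was nearest to the neutrophil genes Retnlg (r = 0.98, a gate marker) and Lcn2 (r = 0.96). Ccr1 was nearest to Clec4e (r = 0.95), a pattern receptor of myeloid cells, and Cxcr6 to Ly6g5b and Cd96 (both r = 0.97). Cxcr3 lay beside Pdss1 (r = 0.89) and Ifng (r = 0.88), the interferon-gamma gene. Ccr7 lay beside Pfdn5 (r = 0.93), Psmb8 (r = 0.92) and the dendritic cell gate marker Zbtb46 (r = 0.90), Ccr6 beside Plekha7 (r = 0.96) and Cxcr4 beside Atp8b1 (r = 0.95). Ccr8 and Ccr10 had 38 and 44 UMIs in the gates, under the 50 required.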

How the data were processed

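The authors deposited, for each of the 2 libraries, raw UMI counts per gene and barcode, without normalization. Per the labels Cell Ranger 3.1.0 and mm10 were used, the header of the count matrix names 5.0.0, and the methods name a later version, so the version is not settled. The deposited counts hold barcodes outside the filter of the methods, which was applied here (200 to 6000 genes, at most 10% mitochondrial UMIs). Cells were gated by the marker list with most detected genes, at least 3 and more than in any other list. T cells were split by Foxp3, then gamma-delta and alpha-beta receptor genes. Non-leukocytes had no Ptprc UMI. The gates are rebuilt and are not the cell names of the study. No doublet caller was run, and an alternative left out cells with 3 or more markers of another list. Ratios were run on simulated Poisson counts and thinning on simulated cells. The simulated counts do not gather in single cells, so they cannot show how the intervals cover the real counts. The alternative clustering used Leiden at resolution 1 on 2000 variable genes, from which chemokine receptors were left out, with 30 components and 20 neighbours (scanpy 1.11.5, Python 3.11.15). RefSeq held promoter stretches for 7 of the 9 members. Named genes are the 9 members, other receptors, their ligands and the 3 genes most like each member; T cell state genes and subsets were added after values had been seen. The members and lists were chosen with earlier results of these data known. Some genes of these lists are not reported here.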

Additional observations from a re-analysis of the deposited data

How the results depend on the processing

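Each condition has 1 library, so no test was made and variation between mice is unknown, and no paired analysis was possible because each condition has 1 library. In Ctrl the neutrophil and basophil gates hold 6 and 9 cells, and a level of a few CPM rests on a few UMIs. Of 191 alternative values of 25 ratios, 162 stayed within the counting interval of the reported ratio, 18 moved beyond it and 11 changed sign. Requiring 2 or 4 markers, using all barcodes, averaging per-cell CPM and requiring Trac left Ccr1 and Cxcr4 in macrophages and Ccr10, Cxcr3 and Cxcr6 in alpha-beta T cells within that interval. The 6 alternatives set out at the start did so for the Ctrl levels of Ccr6 in gamma-delta T cells (54.3 to 68.8 CPM) and Ccr8 in Foxp3 T cells (9.96 to 20.6 CPM). Thinning to 500 UMIs in place of 1000 moved no share ratio beyond its interval.

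Leiden clusters in place of gates gave ratios of 0.85 for Ccr1 in macrophages (2.35 with gates), 1.52 for Ccr7 in dendritic cells (2.40), 2.43 for Cxcr2 in neutrophils (0.82) and 1.29 for Cxcr4 in macrophages (1.76), and Ccr1 in neutrophils turned to 0.51 and Ccr8 in alpha-beta T cells to -0.17. The Leiden dendritic cell class holds 504 Ctrl and 240 AD cells, among them 95 AD cells of the macrophage gate. With Leiden clusters 7 of 25 ratios moved beyond the interval, not all of them named here. Over all alternatives, Ccr1 in dendritic cells reached 4.43 (0.49 with gates) and Ccr7 in macrophages reached 3.54 (0.68 with gates). Ccr7 in dendritic cells was 2.27 with 2 markers and 2.22 with 4. Leaving out cells with markers of another type gave 1.50 for Cxcr4 in macrophages and -0.60 for Ccr7 there, and all deposited barcodes gave -0.05 for Ccr7 there. Ccr1 in basophils turned to 0.22 with 4 markers and 0.21 with per-cell CPM.

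Alternatives added after seeing the data gave 0.36 for Ccr7 in mature dendritic cells. In Cd4 cells the ratios were -3.60 for Cxcr3, -2.31 for Cxcr6 and -0.04 for Cxcr4. In Cd8 cells they were -0.46 for Cxcr3, -0.89 for Cxcr6, 0.20 for Ccr6 and -0.80 for Ccr8. Cells of 2000 to 8000 UMIs gave values for 19 of the ratios, among them 0.17 for Ccr1 in basophils and 0.03 for Cxcr3 in macrophages. The cause of these shifts was not tested.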
